A study of Mus musculus with 13 samples.

Results

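Homologous recombination repairs double-strand breaks in DNA by copying an intact sister or homologous sequence. BRCA1 works with its partner BARD1 at the resected break, PALB2 links BRCA1 to BRCA2, and BRCA2, bound by the small acidic protein SEM1, loads the recombinase onto single-stranded DNA. The paralogs RAD51C, RAD51D, XRCC2 and XRCC3 help the recombinase filament form and persist. Oocytes use the same machinery in meiotic prophase and keep its mRNAs in a store that has to last through maturation, when transcription is silent.

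The mRNAs of 9 of these genes, Brca1, Bard1, Palb2, Brca2, Sem1, Rad51c, Rad51d, Xrcc2 and Xrcc3, were followed in single mouse oocytes. They were chosen by symbol, with earlier results of these data known, out of 18939 genes with counts at both stages. All 9 were listed in every table, and all 9 passed the filter on low counts in each comparison.

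The libraries held 1 oocyte each: 3 SN GV, 3 NSN GV, 4 SN-MII and 3 NSN-MII oocytes. GV oocytes are arrested in prophase with an intact nucleus, and MII oocytes have matured to the second metaphase. NSN and SN name chromatin that does not or does surround the nucleolus. All came from C57BL/6 females of 3 to 4 weeks, 48 h after PMSG, a hormone that drives follicle growth. All were injected with FBL-GFP mRNA, a label of the nucleolus (the study also injected H2B-mCherry), held for 6 h at the GV stage with the phosphodiesterase inhibitor Cilostamide at 10 μM, and sorted by their nucleolar pattern. MII oocytes were sorted as GV oocytes, released and matured in vitro, so the MII groups hold only oocytes that completed maturation. The sources used here do not say which oocytes shared a female, so p-values measure the spread between these oocytes, and they name no batch.

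Each library had between 7140416 and 8846287 counts, of which 3 counts correspond to 0.315 to 0.506 counts per 1000000 (CPM). In every group 11 or 12 of 12 oocyte markers lay above 3 counts in at least 1 library. By the same rule, 10 or 11 of 16 cumulus and granulosa cell markers lay above 3 counts at GV and 8 at MII. Their sums were 413 to 663 CPM at GV and 870 to 1533 CPM at MII. Foxl2 and Ptx3 were at 0 in all 4 groups. Of 4 blood and endothelial markers 3 were among the genes counted, with sums of 53.1 to 78.2 CPM at GV and 117 to 175 CPM at MII. Cdh5 was at 0 in all 4 groups. Ptprc was at 0 in NSN GV, SN-MII and NSN-MII oocytes, so the sums there are Pecam1 alone. The part of all these markers in the stage differences was not tested. SMART-seq2 primes on poly(A) tails, and no spike-in is named. A change in the amount of an mRNA, in its tail and in the other mRNAs of the cell therefore cannot be told apart, and all values are shares of a library.

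The mRNAs of the 9 genes moved in opposite directions between the GV and MII stages. Those of Brca1, Bard1, Palb2, Brca2 and Xrcc2 rose, and those of Sem1, Rad51c, Rad51d and Xrcc3 fell. Changes reached from 3.27-fold higher for Brca2 to 11.1-fold lower for Xrcc3. All 9 passed edgeR's quasi-likelihood test at an adjusted p under 0.05, as did 68.6% of the 11375 genes tested, 31.7% higher and 36.9% lower at MII. The count of 9 has to be read against that share. The median log2 fold change of the 9 genes was 0.76, and that of all genes tested was −0.10.

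The 3′ ends of 4 of these mRNAs are shown because polyadenylation in the cytoplasm during maturation is directed from there. A cytoplasmic polyadenylation element (CPE, searched as TTTTAT or TTTTAAT) binds CPEB1, and the hexamer (AATAAA or ATTAAA) binds the cleavage and polyadenylation specificity factor. Both were searched on the sense strand of the principal transcript of GENCODE M21, the CPE in the last 100 bases and the hexamer in the last 40. Windows of 30 bases are written 5′ to 3′ with both motifs in capitals, and all lie in the last exon.
Brca2 (GRCm38, chr5:150569703-150569732, plus strand): ctatcaTTTTATatacaaAATAAAcatagc
Palb2 (GRCm38, chr7:122107277-122107306, minus strand): gtacataaccagtgaatgttAATAAAtatt
Sem1 (GRCm38, chr6:6557306-6557335, minus strand): taaacagctaaaattaagtcAATAAAagat
Xrcc3 (GRCm38, chr12:111803210-111803239, minus strand): tggagggctttagacccggaAATAAAactt

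Brca2 carried a CPE that began 38 bases before the end of the transcript, 12 bases before the first letter of its hexamer. Palb2, Sem1 and Xrcc3 had a hexamer and no CPE in these windows. Over all 9 genes, a CPE was found in Brca2 and in Bard1, where it began 95 bases before the end, and both of these mRNAs rose. None of the 4 mRNAs that fell had a match. The counts of Brca2 imply a length far under that of its principal transcript, as given further on, and whether the transcripts counted carry this 3′ end was not tested. Among the 11233 genes tested that had such a transcript, 19.5% had a CPE. The share was 29.4% among genes called higher at MII and 10.6% among genes called lower. With only 9 genes, their matches cannot be told apart from these shares. A match of letters is a description and not a site, and Brca1, Palb2 and Xrcc2 rose without one. A hexamer was found in 76.5% of all these genes and in 7 of the 9, with none in the last 40 bases of Bard1 and Rad51d.

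**Figure D1:**
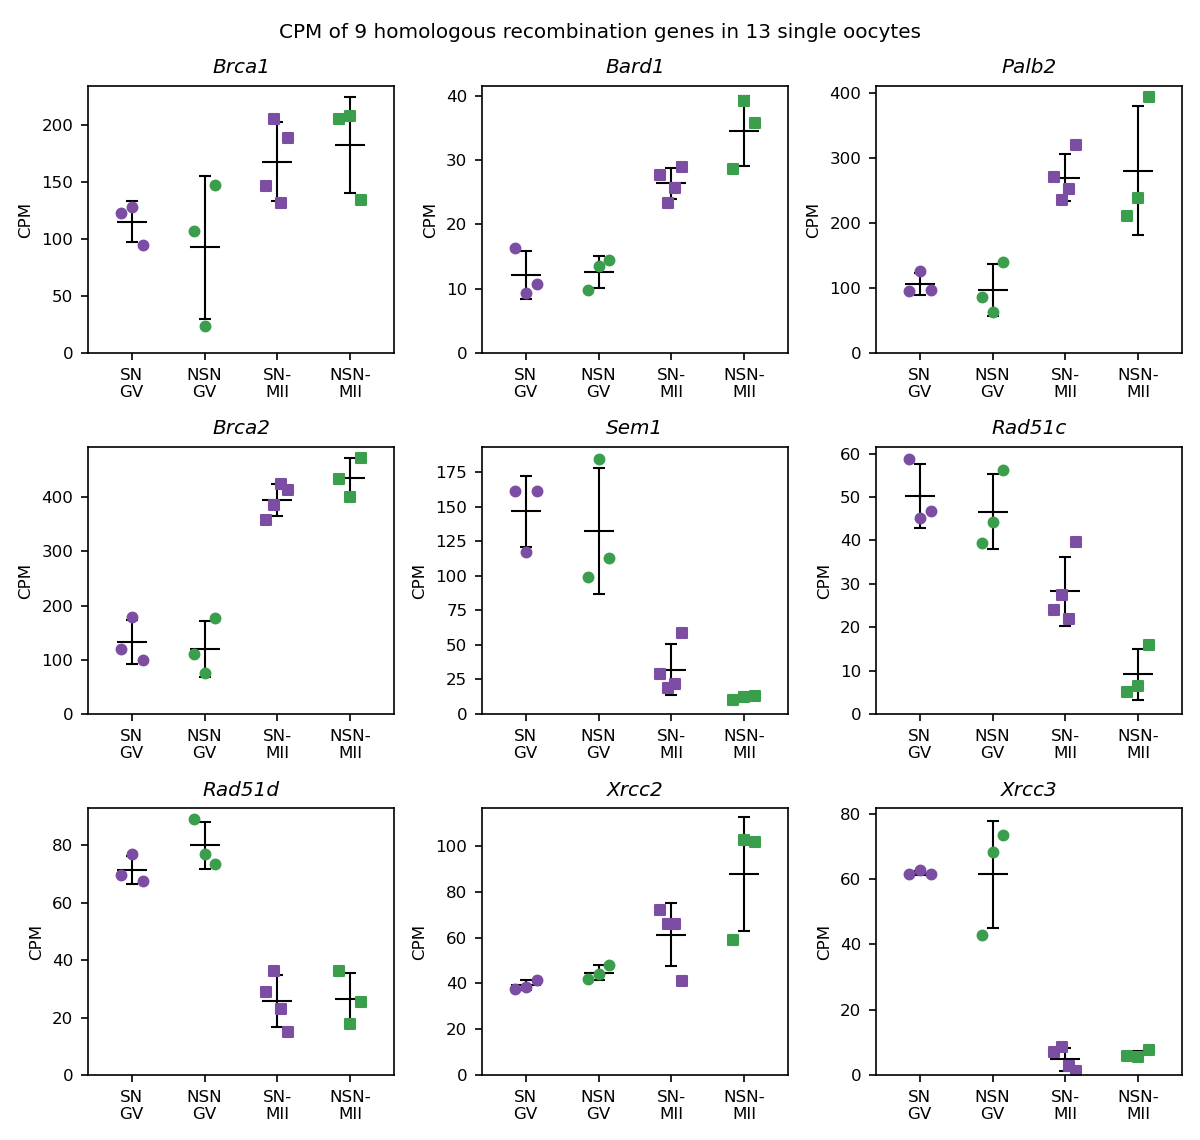
CPM of each gene (vertical axes, linear, each from 0) in every library, by group (SN in purple, NSN in green, circles GV, squares MII), with the mean and SD of the group as bars. Bard1, Palb2 and Brca2 lie higher in all 7 MII libraries than in any GV library, and Sem1, Rad51d and Xrcc3 lower.

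Brca1 (chromosome 11, 101488764 to 101551955, minus strand) encodes the ubiquitin ligase and scaffold that acts early in the pathway. Its level was 123, 128 and 95.0 CPM in the SN GV libraries and 107, 23.8 and 147 CPM in the NSN GV libraries. At MII it was 146, 205, 131 and 189 CPM in SN-MII and 205, 208 and 134 CPM in NSN-MII oocytes. The second NSN GV library stood far below the other 5 GV libraries, and the highest GV library overlapped with 3 MII libraries. The log2 fold change of MII over GV was 0.76 (SE 0.29), with an adjusted p of 0.0284 in edgeR. This was the weakest of the 9 calls. Without the low NSN GV library the log2 fold change was 0.53 (adjusted p = 0.0136 in edgeR), and with library totals as the only scaling the call was lost (0.48, adjusted p = 0.186 in edgeR). It was also lost in edgeR without the third SN GV (adjusted p = 0.0675), the second SN-MII (0.0528), the first NSN-MII (0.0724) or the second NSN-MII library (0.0599).

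Bard1 (chromosome 1, 71027498 to 71103146, minus strand) encodes the partner that stabilizes BRCA1. It had 16.3, 9.34 and 10.8 CPM in SN GV and 9.77, 13.6 and 14.5 CPM in NSN GV oocytes. It had 27.7, 23.4, 25.6 and 28.9 CPM in SN-MII and 28.5, 39.2 and 35.8 CPM in NSN-MII oocytes. All 7 MII libraries lay above all 6 GV libraries. The rise was 2.44-fold (log2 1.28, SE 0.20, adjusted p = 2.76e-05 in edgeR).

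Palb2 (chromosome 7, 122107262 to 122132985, minus strand) encodes the bridge between BRCA1 and BRCA2. Its CPM were 95.4, 126 and 97.4 in SN GV and 86.1, 63.4 and 141 in NSN GV oocytes. They were 271, 236, 253 and 320 in SN-MII and 211, 238 and 394 in NSN-MII oocytes. The lowest MII library was again above the highest GV library. Palb2 rose by 1.44 on the log2 scale (SE 0.20, adjusted p = 8.04e-06 in edgeR), 2.71-fold. Its exons share 414 bases with the pseudogene Gm16326 on the opposite strand, and the libraries are not stated to be stranded. Opposite-strand exons also overlap those of Brca2 (Gm42529, 41 bases) and Xrcc3 (Klc1, 12 bases).

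Brca2 (chromosome 5, 150522630 to 150570329, plus strand) encodes the loader of the recombinase and rose the most of the 9. Its CPM were 121, 179 and 100.02 in SN GV and 110.4, 75.0 and 177 in NSN GV oocytes. At MII they were 357, 387, 424 and 413 in SN-MII and 434, 401 and 473 in NSN-MII oocytes. All 7 MII libraries lay above all 6 GV libraries, and NSN-MII and SN-MII oocytes overlapped. The rise was 1.71 on the log2 scale (SE 0.19, adjusted p = 7.82e-07 in edgeR).

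Sem1 (chromosome 6, 6557294 to 6578663, minus strand) encodes a partner of BRCA2 that is also a subunit of the proteasome lid. It went the other way. Its level was 162, 117 and 162 CPM in SN GV and 99.5, 184 and 113 CPM in NSN GV oocytes. It was 29.2, 18.7, 22.1 and 58.8 CPM in SN-MII and 9.87, 12.6 and 12.99 CPM in NSN-MII oocytes. No MII library reached the lowest GV library, and all 3 NSN-MII libraries lay below all 4 SN-MII libraries. Sem1 was 7.14-fold lower at MII (log2 −2.84, SE 0.26, adjusted p = 7.05e-08 in edgeR).

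The 4 paralog genes were divided. Rad51c (chromosome 11, 87376645 to 87404954, minus strand) belongs to both paralog complexes. It had 58.7, 45.3 and 46.8 CPM in SN GV and 39.5, 44.2 and 56.2 CPM in NSN GV oocytes. It had 24.0, 27.5, 21.9 and 39.6 CPM in SN-MII and 5.12, 6.55 and 15.9 CPM in NSN-MII oocytes. The fourth SN-MII library was just above the lowest GV library, and the 3 NSN-MII libraries were the lowest of all 13. Rad51c was 3.02-fold lower at MII (log2 −1.60, SE 0.25, adjusted p = 2.68e-05 in edgeR).

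Rad51d (chromosome 11, 82876434 to 82890614, minus strand), which joins RAD51C to XRCC2, had 69.7, 76.9 and 67.6 CPM in SN GV and 89.2, 77.0 and 73.5 CPM in NSN GV oocytes. It had 28.9, 36.1, 23.0 and 14.98 CPM in SN-MII and 36.0, 17.8 and 25.3 CPM in NSN-MII oocytes. The stages did not overlap, and both types spanned about the same range at MII. The decrease was 2.90-fold (log2 −1.53, SE 0.21, adjusted p = 6.84e-06 in edgeR).

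Xrcc2 (chromosome 5, 25689812 to 25705825, minus strand), the partner of RAD51D, was the only paralog of the 4 that rose. Its CPM were 37.5, 38.5 and 41.6 in SN GV and 42.0, 44.1 and 48.3 in NSN GV oocytes. They were 72.1, 66.0, 65.9 and 41.3 in SN-MII and 59.0, 103 and 102 in NSN-MII oocytes. The fourth SN-MII library stayed within the GV range, and the other 6 MII libraries lay above it. The rise was 1.75-fold (log2 0.81, SE 0.18, adjusted p = 7.59e-04 in edgeR).

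Xrcc3 (chromosome 12, 111803192 to 111813873, minus strand), which forms a complex of its own with RAD51C, fell the most of the 9. Its CPM were 61.4, 62.6 and 61.4 in SN GV and 42.9, 68.1 and 73.5 in NSN GV oocytes. They were 7.03, 8.47, 2.63 and 1.23 in SN-MII and 5.95, 5.44 and 7.59 in NSN-MII oocytes. The highest MII value was far below the lowest GV value, and the fourth SN-MII library held only 9 counts. The decrease was 11.1-fold (log2 −3.48, SE 0.33, adjusted p = 1.15e-07 in edgeR).

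Non-overlap of the stages was seen upward in 3 of the 9 genes, against 20.9% of all genes tested, and downward in 3, against 26.5%. The directions of the 9 genes were the same with DESeq2's size factors, with library totals only and in limma on FPKM values. With library totals only, the median of all genes moved to −0.39, and 36.8% of calls were higher in place of 46.2%.

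The same directions were seen within each type. From SN GV to SN-MII oocytes, the log2 fold change was 1.57 (SE 0.27) for Brca2, 1.34 (SE 0.28) for Palb2, 1.12 (SE 0.28) for Bard1, 0.65 (SE 0.25) for Xrcc2 and 0.54 (SE 0.40) for Brca1. It was −3.67 (SE 0.44) for Xrcc3, −2.19 (SE 0.34) for Sem1, −1.47 (SE 0.28) for Rad51d and −0.83 (SE 0.33) for Rad51c. From NSN GV to NSN-MII oocytes, the values were 1.85 (SE 0.28) for Brca2, 1.54 (SE 0.29) for Palb2, 1.45 (SE 0.29) for Bard1, 0.97 (SE 0.26) for Xrcc2 and 0.98 (SE 0.42) for Brca1. They were −3.28 (SE 0.49) for Xrcc3, −3.49 (SE 0.40) for Sem1, −2.36 (SE 0.38) for Rad51c and −1.60 (SE 0.31) for Rad51d. Values of the types lay farthest apart for Rad51c and Sem1, whose interaction did not pass the test given further on.

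**Figure D2:**
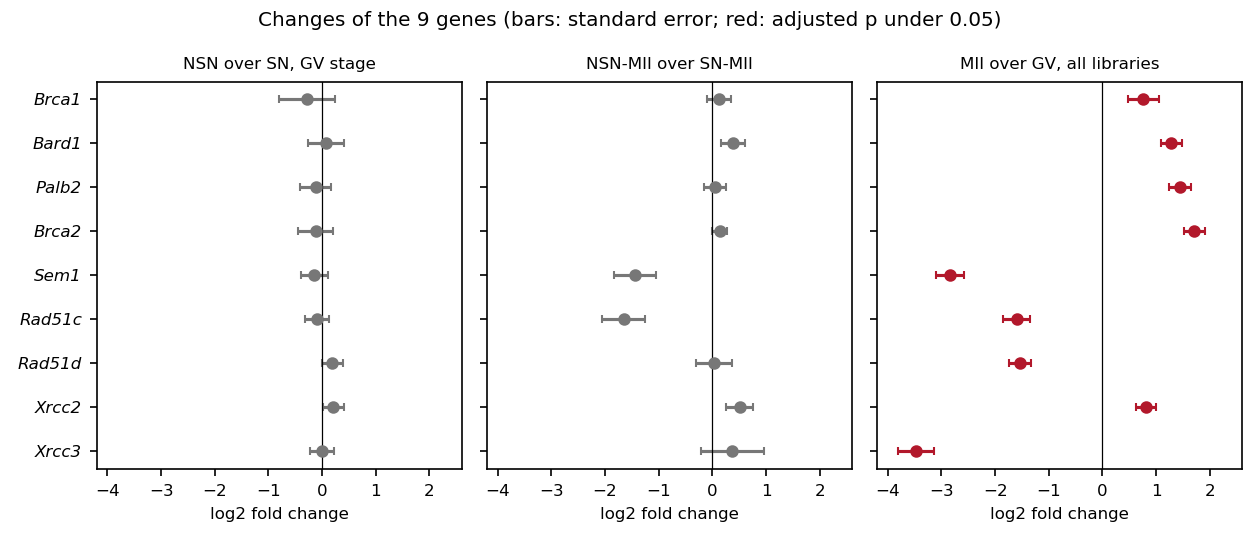
Log2 fold change (horizontal axes) with its standard error (bars) for each of the 9 genes, from edgeR, for NSN over SN at GV (left), NSN-MII over SN-MII (middle) and MII over GV (right). Red points have an adjusted p under 0.05, which all 9 reach on the right and none at left or middle, where Rad51c (−1.65) and Sem1 (−1.45) stand apart from the rest.

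NSN and SN oocytes were compared at each stage because the study asked how their transcripts differ. At GV, none of the 9 genes was called, and neither was any of the 10839 genes tested by edgeR's quasi-likelihood test (0%) or of the 15272 tested by DESeq2. At an unadjusted p under 0.05, edgeR gave 190 genes, 1.75% of those tested and none of the 9. Log2 fold changes of NSN over SN lay between −0.28 (SE 0.52) for Brca1 and 0.21 (SE 0.20) for Xrcc2, with a median of −0.09 over the 9 genes and 0.01 over all genes. Xrcc2 was the only one of the 9 whose groups did not overlap, with NSN higher, as in 3.11% of all genes tested, and its 95% interval ran from −0.24 to 0.65.

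Brca1 had the widest 95% interval at GV, from −1.46 to 0.90. Without the low second NSN GV library its log2 fold change was 0.17, and the median of the 9 genes turned from −0.09 to 0.12. The Palb2 and Brca2 values of that library were also the lowest of the 6 GV libraries, while its Sem1 value was the highest. It had the fewest genes detected of the GV libraries, 12699. The 95% interval of each of the 9 genes held 0.

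At MII, 2 of the 9 genes set NSN-MII apart from SN-MII oocytes, and neither passed the main test. The mean of Rad51c was 9.18 ± 5.83 CPM in the 3 NSN-MII libraries (SD, n = 3), against 28.3 ± 7.92 CPM in the 4 SN-MII libraries (SD, n = 4). The mean of Sem1 was 11.8 ± 1.70 CPM in NSN-MII libraries (SD, n = 3), against 32.2 ± 18.3 CPM in SN-MII libraries (SD, n = 4). All NSN-MII values were below all SN-MII values for both genes, as in 5.56% of all genes tested. The log2 fold change was −1.65 (SE 0.40) for Rad51c and −1.45 (SE 0.39) for Sem1.

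By edgeR's quasi-likelihood test, Rad51c had an unadjusted p of 0.00144 and an adjusted p of 0.134. Sem1 had an unadjusted p of 0.00307 and an adjusted p of 0.181 in edgeR. None of the 9 was therefore called, against 0.259% of the 10028 genes tested. At an unadjusted p under 0.05 in edgeR, 2 of the 9 passed, against 9.38% of all genes, and both also changed by at least 1.5-fold, as did 7.17%. DESeq2 called both, with an adjusted p of 0.00470 for Rad51c and 0.0162 for Sem1, and called 2.37% of its 9335 genes. Both genes are on the DNA repair list that the study drew from these libraries, so they are not independent evidence of a direction for such genes.

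The values rested on single libraries in part. Without the third NSN-MII library, which had the fewest genes detected of all 13 (11593), the Rad51c difference was −2.26 with an adjusted p of 0.00889 in edgeR. Without the fourth SN-MII library, which had the highest Rad51c and Sem1 values of its group, the log2 fold change was −0.99 for Sem1 and −1.44 for Rad51c.

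The other 7 genes had values above 0 in this comparison. Xrcc2 was at 0.51 (SE 0.25, 95% interval −0.03 to 1.06), Bard1 at 0.38 (SE 0.22) and Xrcc3 at 0.37 (SE 0.59). Brca2 was at 0.14 (SE 0.14), Brca1 at 0.12 (SE 0.22), Palb2 at 0.05 (SE 0.21) and Rad51d at 0.03 (SE 0.34). None had an unadjusted p under 0.05. The 95% interval was narrowest for Brca2, from −0.17 to 0.44. The median over the 9 genes was 0.12, and over all genes it was 0.02.

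Whether the difference between NSN and SN oocytes changed with the stage was tested as an interaction. None of the 9 genes was called by edgeR or by DESeq2, against 0.0176% of the 11375 genes tested in edgeR and 0.288% of 12498 in DESeq2. At an unadjusted p under 0.05 in edgeR, 2 of the 9 and 5.33% of all genes passed, and with a difference of at least 1.5-fold as well, 2 of the 9 and 5.27%. Those 2 were Rad51c, at −1.53 (SE 0.50, unadjusted p = 0.00720, adjusted p = 0.682 in edgeR), and Sem1, at −1.30 (SE 0.50, unadjusted p = 0.0194, adjusted p = 0.798 in edgeR).

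The order of the 9 mRNAs by abundance changed between the stages. On the FPKM scale, which divides by length, Sem1 led at GV with a median of 96.5, clear of the next gene. Brca2 (41.8), Palb2 (31.4), Xrcc3 (28.3), Rad51c (26.7) and Rad51d (25.1) followed, each overlapping with its neighbour. Brca1 (18.4) overlapped with Xrcc2 (13.6), and Bard1 was the lowest at 2.02. At MII, Brca2 led with a median FPKM of 125 and Palb2 followed at 78.9, both without overlap with the next gene. Brca1 (23.0), Xrcc2 (19.5), Rad51c (12.5), Sem1 (12.4), Rad51d (6.77), Bard1 (4.21) and Xrcc3 (3.21) followed, and each overlapped with its neighbour. The median of Bard1 thus lay well below that of its partner Brca1 at both stages, and in the second NSN GV library the genes were close, with an FPKM of 2.16 for Bard1 and 3.25 for Brca1.

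The length behind the FPKM values was not the same for all 9 genes. A count and an FPKM value together imply a transcript length, which was calculated for each library. Its median lay between 93.9% and 104% of the principal transcript for Brca1, Bard1, Sem1 and Xrcc2, and between 80.9% and 87.6% for Palb2, Rad51d and Xrcc3. For Brca2 the median was 2933 bases over the 13 libraries (2312 to 3114), 27.4% of the principal transcript of 10724 bases. For Rad51c it was 1723 bases, 43.7% of 3944 bases. The stages were close to each other, with 26.1% at GV and 28.1% at MII for Brca2 and 44.3% and 42.9% for Rad51c. RSEM takes a gene's length from the transcripts it assigns counts to, and values of single transcripts were not analysed here.

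With CPM divided by the length of the principal transcript instead, Brca2 ranked 8 of 9 at GV, with a median of 10.8 CPM per kb. Palb2 then led at MII with 67.5 CPM per kb and Brca2 came next with 38.5. Xrcc3 had an implied length of 456 bases in the fourth SN-MII library, where it had 9 counts. The edgeR and DESeq2 values given above do not use a length.

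**Figure D3:**
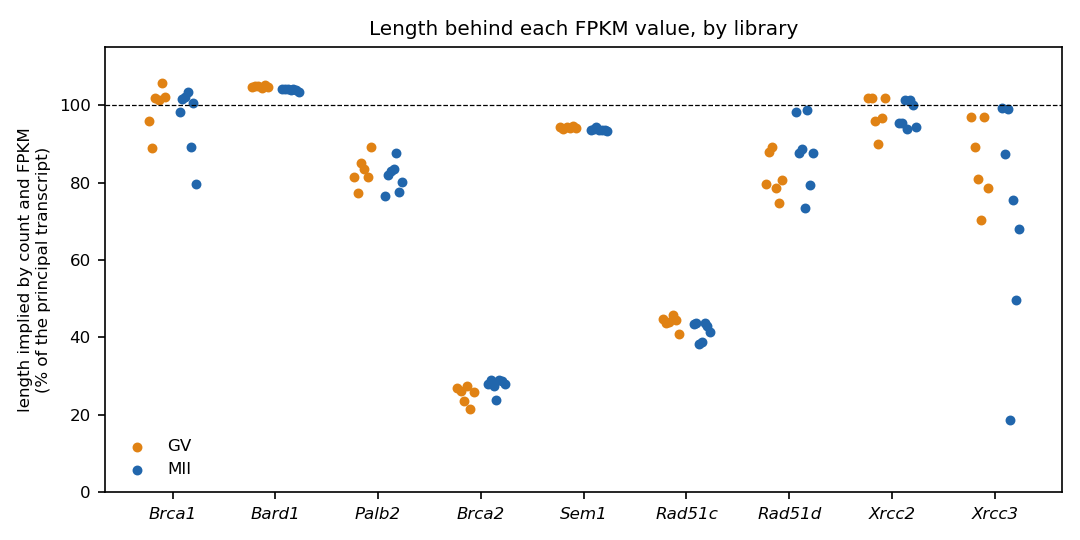
Transcript length implied by count and FPKM (vertical axis, in percent of the annotated principal transcript, linear) for each of the 9 genes in the 6 GV (orange) and 7 MII (blue) libraries. Brca2 (median 27.4%) and Rad51c (median 43.7%) lie far below the dashed line at 100% in all libraries, and the lowest point is Xrcc3 in the fourth SN-MII library.

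The genes whose levels ran most like each of the 9 over the 13 libraries were found by the root-mean-square difference of centred log2(CPM + 1) values. They share the libraries and the stage difference, so this is a description. For Palb2 the nearest genes were Mllt10 (0.115), Helq (0.116) and Map1b (0.118). For Brca2 they were Ccser2 (0.135), Chd7 (0.147) and Fancm (0.147). For Rad51c they were H2afx (0.343), Bub3 (0.35) and Ifnar1 (0.381). For Brca1 they were Tbc1d1 (0.198), Il6st (0.237) and Slc12a7 (0.243), and for Bard1 Psip1 (0.183), Fam8a1 (0.184) and Knl1 (0.192). For Sem1 they were Lsm3 (0.259), Cetn2 (0.323) and Hist1h2bc (0.33), and for Rad51d Net1 (0.178), Ubald1 (0.214) and Cog4 (0.221). For Xrcc2 they were Aldh9a1 (0.191), Zfp422 (0.201) and Klhdc2 (0.208), and for Xrcc3 Mrto4 (0.30), Osbpl9 (0.309) and Psmd6 (0.343).

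Other genes of the pathway were also called in both directions between GV and MII oocytes. Of 67 genes listed, 66 had counts and 62 were tested. By edgeR's quasi-likelihood test 45 were called, 20 higher and 25 lower at MII, beside 31.7% of all genes tested that were higher and 36.9% that were lower, and their median log2 fold change over the 62 genes was −0.18. Among recombinases and partners of the recombinase filament, 5 of 14 tested rose and 5 fell. The group listed as BRCA1 partner complexes also holds Rnf8, Rnf168 and Trp53bp1, and 4 of its 10 genes rose and 4 fell. Rnf168 and Trp53bp1 were among those that rose. The MRN complex, end resection factors and RPA had 4 of 8 higher and 4 lower. Dissolution and resolution factors had 2 of 14 higher and 5 lower, the group of MCM8, MCM9, HELQ and POLQ had 2 of 4 higher and 1 lower, and meiotic recombination genes had 3 of 12 higher and 6 lower.

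**Figure D4:**
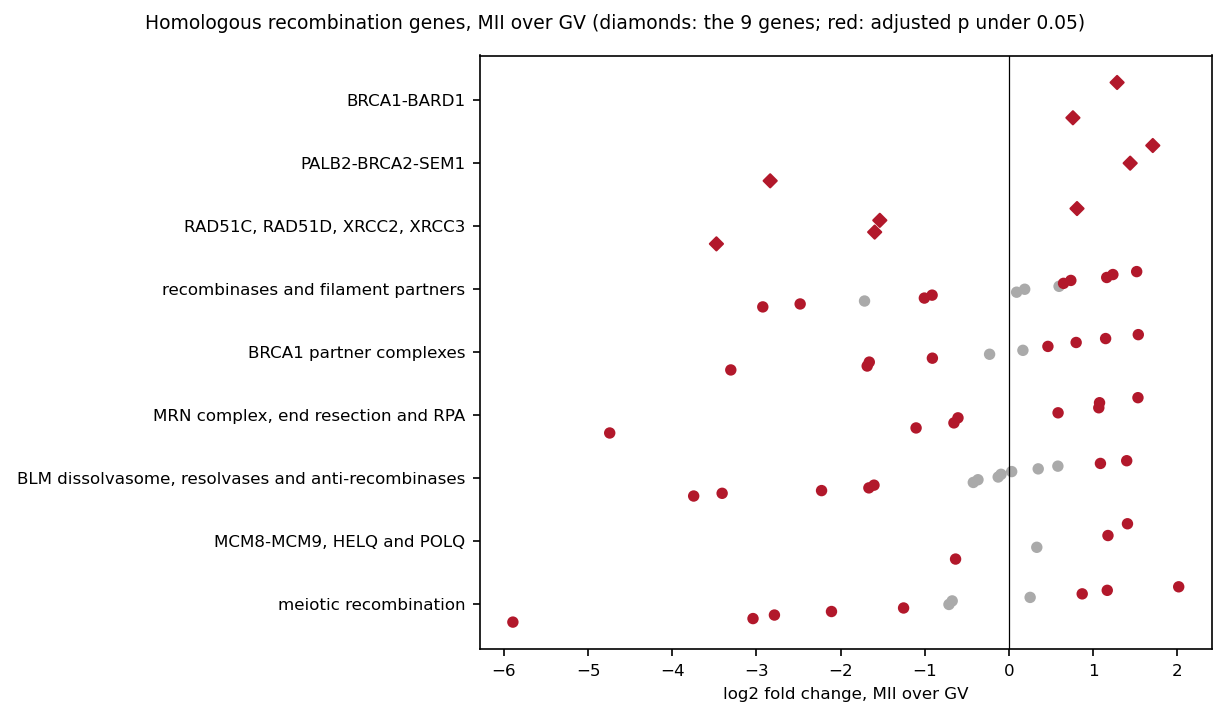
Log2 fold change of MII over GV (horizontal axis) for the 9 genes (diamonds) and 60 of the 62 other homologous recombination genes tested (circles), by group (vertical axis). The group labelled BRCA1 partner complexes also holds Rnf8, Rnf168 and Trp53bp1. Red marks an adjusted p under 0.05, and every group of other genes has red points on both sides of 0.

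Dmc1, which encodes the meiotic recombinase, was at 5.57 to 9.69 CPM at GV and 3.09 to 17.5 CPM at MII, and was not called (0.60, SE 0.36, adjusted p = 0.157 in edgeR). Rad51b, the remaining classical paralog, was at 4.74 to 13.002 CPM at GV and 2.39 to 8.94 CPM at MII and fell by 0.91 on the log2 scale (SE 0.33, adjusted p = 0.0211 in edgeR). Rad52, which anneals single strands, was at 20.6 to 44.4 CPM at GV and 1.36 to 6.41 CPM at MII, 7.59-fold lower (adjusted p = 1.25e-07 in edgeR).

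The largest rises among genes whose stages did not overlap were those of Trp53bp1 (log2 1.54, SE 0.18), which shields breaks from resection, Dna2 (1.53, SE 0.24), a resection nuclease, and Fignl1 (1.52, SE 0.17), an ATPase that acts in recombination. Helq (1.41, SE 0.18) and Blm (1.40, SE 0.19), both helicases, came next. The largest decreases named here were those of Psmc3ip (−5.89, SE 0.36), a recombination cofactor, and Rpa2 (−4.74, SE 0.27), a subunit of the single-strand binding complex. The nuclease genes Eme2 (−3.75, SE 0.67) and Mus81 (−3.41, SE 0.18) followed. Psmc3ip went from 34.0 to 73.8 CPM at GV to 0.169 to 1.99 CPM at MII. The fitted sizes for Psmc3ip and Eme2 rest on few MII counts, since Psmc3ip had 1 to 14.6 counts in a library and Eme2 was at 0 in 3 of the 7 MII libraries. Msh5 had the largest log2 fold change above 0 on the list, 2.02, but its stages overlapped, and it is named after its values were seen.

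None of the other pathway genes was called between NSN and SN oocytes by edgeR or DESeq2 at either stage, with 61 tested by edgeR at GV and 57 at MII. At an unadjusted p under 0.05 in edgeR, none passed at GV and 5 of 57 at MII, beside 9.38% of all genes tested there. Those 5, named after their values were seen, were Spidr (−0.57), Abraxas1 (−0.62), Dna2 (−0.45) and Ccnb1ip1 (−2.33), lower in NSN-MII oocytes, and Mlh3 (2.07), higher. Dmc1 (−0.01, SE 0.52), Rad51b (0.25, SE 0.51) and Rad52 (0.82, SE 0.52) did not pass there.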

How the data were processed

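Single-oocyte SMART-seq2 libraries were grouped by the deposited labels, each library being 1 replicate. Per the labels, the submitters' processing notes name Trim Galore 0.4.4, Bowtie2 2.3.5, RSEM 1.2.28, DESeq2 1.20.0 and mm10. RSEM expected counts had been deposited in 1 table per stage, and up to 16.6% of a library's values were not whole. FPKM, also from RSEM, were in 1 deposited table of 49686 genes.

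Counts were rounded. In R 4.3.3 with edgeR 4.0.16, low genes were removed by filterByExpr and TMM factors were computed. CPM are counts per 1000000 of the TMM-scaled total. NSN and SN oocytes were compared within a stage, and MII with GV oocytes and the interaction in 1 model of 4 group means over 13 libraries. The test was edgeR's quasi-likelihood test, with p-values adjusted by Benjamini and Hochberg's method over all genes tested. Intervals are at 95%. Alternatives were DESeq2 1.42.0, limma-trend (limma 3.58.1) on log2(FPKM + 1) or log2(FPKM + 0.1) with mean FPKM filtered at 0.1 or unfiltered, DESeq2's size factors, library totals only, no filter, all libraries in 1 fit, a replicate block, a 1.5-fold minimum with an unadjusted p under 0.05, and each library left out. Fits were also run on simulated counts with planted changes and 1 spread for all genes. Real genes differ in spread, so this checks the code and not the calls given here. No library was a copy of another of its group.

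For implied length, the count was divided by the product of FPKM and the library total, in the units of FPKM. For single-transcript genes with at least 100 counts, the median quotient of a library was 1.01 to 1.15 times the annotated length. Implied length is the quotient after division by that ratio of its library. It is approximate, because RSEM uses effective lengths. Positions and 3′ ends are from GENCODE M21 (GRCm38, the build called mm10).

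Named were all 9 genes, Dmc1, Rad51b and Rad52, and of the wider list up to 5 called genes in each direction with the largest change and no overlap, and for likeness the 3 nearest genes. The genes and lists were chosen with earlier results of these data known. Values of 2 other genes of the wider list are not reported here, though the list's counts hold them. Raw reads, proteins and imaging were not analysed here.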

Additional observations from a re-analysis of the deposited data

Results flagged for a closer look

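One of 23 combinations of a named gene and the SN-MII group of 4 libraries held a library far from the rest. Blm, a helicase gene of the wider list, was at 200.4 CPM in the fourth SN-MII library, while the other 3 libraries lay between 136 and 142 CPM. About 1 group in 20 is set apart in this way by chance. That library also held the highest Bard1, Palb2, Sem1 and Rad51c and the lowest Rad51d, Xrcc2 and Xrcc3 values of its group. It had the fewest genes detected of the SN-MII libraries, 11830.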

How the results depend on the processing

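With 3 or 4 oocytes a group, the common biological coefficient of variation was 0.344 to 0.364. With 1 library an oocyte, differences between oocytes and between library preparations cannot be told apart in it. Among the 9 genes, counting adds most for Xrcc3 at MII, which had as few as 9 counts in a library. All 9 genes' log2 fold changes of MII over GV kept their direction under every alternative run. Between the stages 8 or 9 of the 9 genes were called (8 to 9 without 1 library; 43 to 47 of the other genes). The gene lost was Brca1, at 0.48 with library totals only, 0.75 with a replicate block (adjusted p = 0.0671 in edgeR), 0.75 or 0.81 in limma, and without the third SN GV, second SN-MII, first NSN-MII or second NSN-MII library. The median of the 9 genes was then 0.48 with library totals only, and ranged from 0.53 to 0.84 without 1 library. For NSN-MII over SN-MII, the count of called genes among the 9 was 2 at an unadjusted p with 1.5-fold, 2 in DESeq2, 1 (Rad51c) with no filter, 1 (Rad51c) with all 13 libraries in 1 fit, and 0 to 1 without 1 library. Over its alternatives, the adjusted p of Rad51c ran from 0.00470 (DESeq2) to 0.479 (replicate block). Of the other genes, 3 passed in that comparison at an unadjusted p with 1.5-fold, and 0 to 3 were called without 1 library. In the interaction, 2 of the 9 and 2 of the other genes passed at an unadjusted p with 1.5-fold.

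Some signs turned. Xrcc3 at GV went to 0.00043 with DESeq2's size factors, 0.0035 with library totals and 0.12 in limma (all 3 settings). Rad51d at MII went to −0.19 with the replicate block. Without 1 library, the GV values ranged from −0.72 to 0.17 for Brca1, −0.11 to 0.33 for Bard1, −0.45 to 0.12 for Palb2, −0.46 to 0.14 for Brca2, −0.23 to 0.023 for Rad51c and −0.13 to 0.16 for Xrcc3. The MII values ranged from −0.26 to 0.21 for Palb2 and −0.27 to 0.25 for Rad51d. The interaction ranged from −0.019 to 0.95 for Brca1, −0.14 to 0.57 for Palb2 and −0.47 to 0.10 for Rad51d. The cause was not tested. The median of the 9 genes ranged from −0.13 to 0.12 at GV and −0.019 to 0.45 in the interaction. Same-numbered libraries of different groups did not deviate together (r from −0.46 to 0.20 over 12 pairs). For libraries of different number, r ran from −0.19 to 0.40 over 24 pairs. With so few libraries a group, these values cannot tell whether libraries shared a female or a batch. With a replicate block, 8 of the 9 genes were called between the stages.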
